A study of Mus musculus with 24 samples.

Results

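The RNA of 9 transcription factors of the B lineage, *Pax5*, *Ebf1*, *Pou2af1*, *Pou2f2*, *Spib*, *Bach2*, *Bcl11a*, *Ikzf3* and *Foxo1*, was followed in the blood of young and old mice 24 h after x-rays. The factors were found by their symbols in the array annotation and are 9 of the 18737 genes that passed a filter on dim probes, and all 9 were among the 17470 genes tested. They were represented by 15 probes, and for the 5 factors with more than 1 probe the brightest one stood for the gene. All 24 mice were C57BL/6J males, and each array carried the whole blood RNA of 1 mouse after removal of globin RNA. The young mice were 2 months old and the old mice 21 months old. At each age 6 mice received 4 Gy to the whole body and 6 were handled alike without exposure (0 Gy). A level is given throughout as log2 of the processed signal minus the median of the same array, and levels are compared between mice for 1 probe at a time. A gene was called changed at an unadjusted p below 0.005 together with an adjusted p below 0.05 in limma's moderated test.

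The median signal of the arrays ran from 8.66 to 44.8, and 43.9% to 64.4% of spots were well above background. The arrays of old irradiated mice 4 and 6 stood apart with the lowest median signals, 8.66 and 8.84. The mean of 7 red cell markers was 11.87 and 11.91 in these 2 mice and 7.33 to 8.37 in the other 4 old irradiated mice, and the mean of 7 monocyte markers was 5.27 and 5.36 against 7.39 to 7.68. The mean of 7 hepatocyte markers reached 10.44 to 10.89 in old irradiated mice 2, 3 and 5 and 10.91 to 11.88 in young irradiated mice 2, 4 and 5, against 0.57 to 7.97 in the unirradiated mice. Results that rest on these mice are given with and without them. All old arrays were scanned on another day than all young arrays and lay on slides of their own, so age and scan day cannot be told apart. At each age 1 slide held 2 irradiated and 2 unirradiated mice.

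EBF1 and PAX5 establish and hold B cell identity: EBF1 opens and activates the early B cell genes, and PAX5 switches on B cell genes and silences genes of other lineages. POU2F2 (Oct-2) binds the octamer element of immunoglobulin promoters with its B cell coactivator POU2AF1 (OCA-B). SPIB is an ETS factor close to PU.1, BACH2 holds back plasma cell differentiation, BCL11A is needed for early lymphoid development, IKZF3 (Aiolos) is an Ikaros family zinc finger factor that T and NK cells also express, and FOXO1 drives genes of lymphocyte development and homing. Circulating B cells are among the most radiosensitive cells of blood.

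The probes for *Pax5* and *Foxo1* show what was measured. The *Pax5* probes are printed because they parted in old irradiated mice 4 and 6, and the *Foxo1* probe because its values had the smallest spread among young irradiated mice. The files place the first *Pax5* probe, which stands for the gene, at chr4:44658421-44658480 on the minus strand of mm9, the second between chr4:44550354-44582908 on the minus strand, a span of 32555 bases for a 60-base probe, and the *Foxo1* probe at chr3:52150183-52150242 on the plus strand. No letters are capitalised, since each probe is measured as a whole.
Pax5 A_55_P2126394: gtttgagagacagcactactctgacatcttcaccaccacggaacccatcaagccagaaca
Pax5 A_51_P122855: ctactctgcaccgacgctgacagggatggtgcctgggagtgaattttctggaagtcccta
Foxo1 A_51_P138044: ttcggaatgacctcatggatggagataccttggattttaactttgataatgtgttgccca

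Most of the factors moved together after radiation, so their promoter windows (250 bases before to 50 after the start, RefSeq, GRCm38.p6) were searched on both strands for the letters of 4 motifs. Windows were given for 8 of the 9 factors, with 2 for *Ebf1*. The EBF core CCCNNGGG was present in 2 of the 9 windows, those of *Spib* and *Foxo1*, and in 13.7% of all 32851 windows. The octamer ATGCAAAT was in 0 of the 9 windows and 1.74% of all windows, the PU box GAGGAAG in 0 and 13.6%, and the FOXO core GTAAACA in 0 and 3.65%. The windows of *Spib* (chr7:44532022-44532321, minus strand) and *Foxo1* (chr3:52268087-52268386, plus strand) are shown because they hold the EBF core, which is in capitals. In *Spib* 2 matches overlap, 65 and 64 bases before the start, and in *Foxo1* the match lies 91 bases before the start.
Spib promoter: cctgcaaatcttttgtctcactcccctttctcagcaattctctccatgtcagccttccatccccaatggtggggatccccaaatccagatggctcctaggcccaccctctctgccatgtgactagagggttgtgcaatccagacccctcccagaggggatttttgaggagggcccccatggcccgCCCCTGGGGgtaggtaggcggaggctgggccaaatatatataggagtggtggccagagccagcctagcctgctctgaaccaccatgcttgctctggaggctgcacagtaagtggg
Foxo1 promoter: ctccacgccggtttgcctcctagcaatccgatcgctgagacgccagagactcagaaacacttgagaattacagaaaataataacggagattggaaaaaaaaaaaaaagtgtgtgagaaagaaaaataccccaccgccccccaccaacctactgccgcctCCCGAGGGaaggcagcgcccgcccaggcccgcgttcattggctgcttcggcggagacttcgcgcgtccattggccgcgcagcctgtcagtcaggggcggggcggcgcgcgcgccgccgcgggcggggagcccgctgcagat

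At 24 h after 4 Gy, 8 of the 9 factors fell in young mice, by 3.21-fold to 9.36-fold, and *Ikzf3* did not pass the test. Among all genes tested, 21.4% were called lower in this comparison, and the median change was -0.20 on the log2 scale against -2.04 for the 9 factors. For 8 of the 9 factors the ranges of the 2 groups lay apart, which held in the lower direction for 15.4% of all genes. In whole blood RNA, fewer B cells and less of an RNA per B cell cannot be told apart.

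The 2 factors of B cell identity were among them. *Ebf1* ran from 4.01 to 4.75 in unirradiated young mice (median 4.31) and from 0.51 to 1.95 in irradiated young mice (median 1.17). It was 9.36-fold lower after radiation (log2 change -3.23, SE 0.24, adjusted p = 1.37e-06 in limma), the largest fall of the 9. *Pax5* ran from 1.34 to 1.83 (median 1.55) without and from -1.22 to 0.25 (median -0.43) with radiation. Every irradiated mouse lay below every unirradiated mouse for both genes. The change of *Pax5* was -2.04 (SE 0.24, 4.10-fold lower, adjusted p = 3.41e-05), and its probe was well above background in 3 of 6 irradiated mice.

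The octamer pair fell less steeply. *Pou2af1*, the coactivator, ran from 6.68 to 7.22 (median 7.02) without and from 4.53 to 6.02 (median 4.93) with radiation, with irradiated mouse 4 the highest of its group. *Pou2f2*, the octamer factor itself, ran from 4.34 to 4.78 (median 4.68) without and from 2.60 to 3.41 (median 2.94) with radiation. The groups were apart for both. *Pou2af1* was 3.92-fold lower (log2 change -1.97, SE 0.22, adjusted p = 2.86e-05 in limma) and *Pou2f2* 3.21-fold lower (log2 change -1.68, SE 0.16, adjusted p = 8.62e-06).

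*Spib*, *Bach2* and *Bcl11a* fell between 5.28-fold and 7.59-fold. *Spib* ran from 6.81 to 7.30 (median 7.16) in unirradiated and from 4.21 to 5.21 (median 4.72) in irradiated young mice. *Bach2* ran from 4.17 to 5.06 (median 4.76) and from 1.31 to 2.31 (median 1.66), and *Bcl11a* from 5.16 to 5.58 (median 5.51) and from 1.91 to 3.15 (median 2.68). For all 3 genes the lowest unirradiated mouse stood more than 1 log2 unit above the highest irradiated mouse. The log2 changes were -2.40 for *Spib* (SE 0.20, adjusted p = 2.92e-06 in limma), -2.92 for *Bach2* (SE 0.21, adjusted p = 1.04e-06) and -2.89 for *Bcl11a* (SE 0.20, adjusted p = 9.21e-07).

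*Foxo1* fell by a similar amount as the octamer pair. It ran from 5.77 to 6.36 (median 6.13) without and from 4.08 to 4.50 (median 4.33) with radiation, and was 3.47-fold lower (log2 change -1.80, SE 0.14, adjusted p = 2.34e-06 in limma). *Ikzf3* ran from 2.18 to 2.58 (median 2.24) without and from 1.30 to 2.68 (median 2.03) with radiation. Its groups overlapped, and the change of -0.32 (SE 0.21, 95% interval -0.76 to 0.13, adjusted p = 0.23 in limma) did not pass the test. Without young irradiated mice 2, 4 and 5, whose hepatocyte markers were high, 8 factors were again called lower and *Ikzf3* had an estimate of 0.03. After normexp background correction, which subtracts a modelled background from the mean signal, 3 of the 9 factors and 835 of 11773 genes were called, with the 8 estimates still below 0. Within the 1 young slide that held both doses, the 8 factors differed by -1.91 (*Pax5*) to -3.56 (*Ebf1*), with 2 irradiated against 2 unirradiated mice. These differences were not worked out over all genes.

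**Figure D1:**
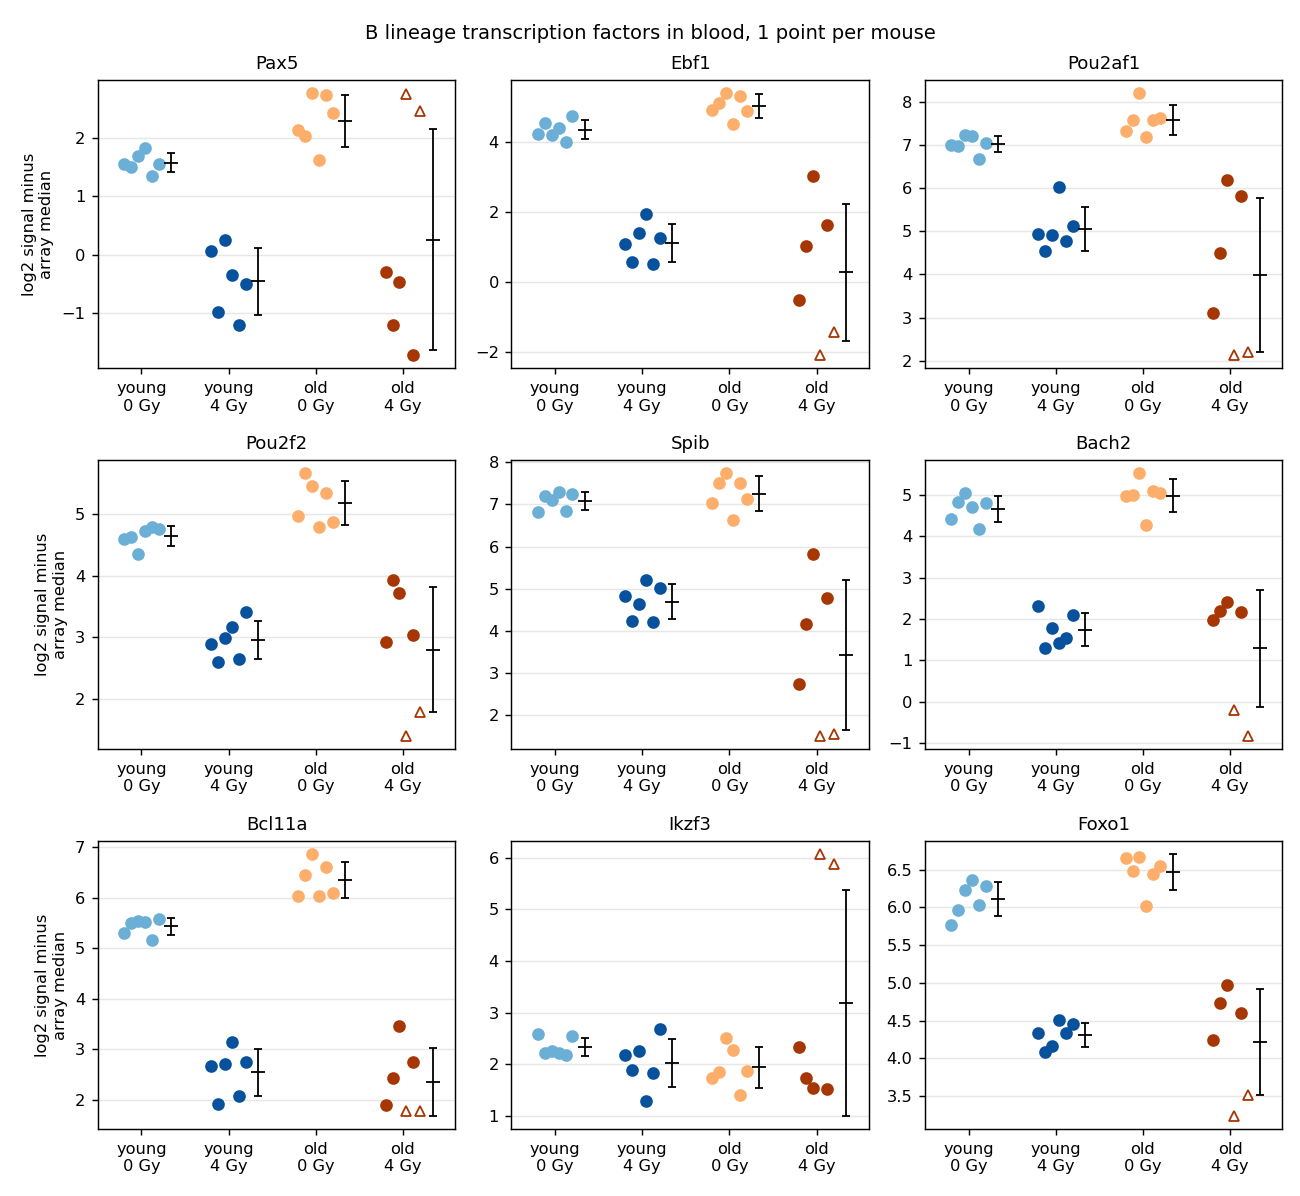
Level of each factor (log2 signal minus the array median, vertical axis, own range in each panel) in the 4 groups, with 1 point per mouse and the mean ± SD over 6 mice beside it; open triangles are old irradiated mice 4 and 6. In young mice the irradiated points lie below the unirradiated points for every factor except *Ikzf3*, and in old mice the triangles are the lowest points of 7 factors and the highest points of *Pax5* and *Ikzf3*.

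In old mice 7 of the 9 factors fell after 4 Gy, by 4.77-fold to 26.8-fold, and *Pax5* and *Ikzf3* were not called. Among all genes tested, 17.4% were called lower, and the median change was -0.25 for all genes and -3.58 for the 9 factors. The 7 called factors were also those whose ranges with and without radiation lay apart, as the ranges of 16.7% of all genes did in the lower direction. The old irradiated mice spread widely. Mice 4 and 6 were lower than the other 4 in 7 factors and higher in the remaining 2.

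*Ebf1* ran from 4.50 to 5.40 (median 5.02) in unirradiated old mice. In irradiated old mice 1 to 6 it was -0.50, 1.03, 3.04, -2.09, 1.63 and -1.43, so mouse 3 was highest and mice 4 and 6 lowest, all below the unirradiated range. The change was -4.75 (SE 0.72, 26.8-fold lower, adjusted p = 0.000738 in limma), and -3.73 without mice 4 and 6. The probe was well above background in 3 of the 6 irradiated mice.

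*Pou2af1* ran from 7.18 to 8.20 (median 7.57) without radiation and was 3.10, 4.50, 6.19, 2.13, 5.81 and 2.21 in irradiated old mice 1 to 6. *Spib* ran from 6.62 to 7.74 (median 7.32) without radiation and was 2.74, 4.16, 5.83, 1.5, 4.78 and 1.54 in the same mice. Both genes put the 6 mice in the order of mouse 3, 5, 2, 1 and then 6 and 4, and so did *Ebf1*. *Pou2af1* was 11.99-fold lower (log2 change -3.58, SE 0.66, adjusted p = 0.00202 in limma) and *Spib* 14.3-fold lower (log2 change -3.83, SE 0.67, adjusted p = 0.00153), with changes of -2.67 and -2.88 without mice 4 and 6.

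*Bach2*, *Pou2f2* and *Foxo1* were less spread among old irradiated mice 1, 2, 3 and 5. *Bach2* was 1.98 to 2.41 in these 4 mice, against -0.20 and -0.83 in mice 4 and 6 and 4.27 to 5.53 in unirradiated old mice. *Pou2f2* was 2.92 to 3.92 in the 4 mice, 1.41 and 1.79 in mice 4 and 6, and 4.79 to 5.65 without radiation. *Foxo1* was 4.24 to 4.97, 3.23 and 3.52, and 6.02 to 6.67, respectively. All 3 genes kept the 6 irradiated mice below the unirradiated mice. The changes were -3.70 for *Bach2* (SE 0.55, adjusted p = 0.000672 in limma), -2.38 for *Pou2f2* (SE 0.42, adjusted p = 0.00159) and -2.25 for *Foxo1* (SE 0.32, adjusted p = 0.000527), and -2.80, -1.78 and -1.83 without mice 4 and 6.

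*Bcl11a* had the smallest error of the factors that fell by over 10-fold in old mice. It ran from 6.02 to 6.87 (median 6.27) without and from 1.77 to 3.46 (median 2.16) with radiation. The groups were more than 2 log2 units apart. It was 16.0-fold lower (log2 change -4.00, SE 0.32, adjusted p = 2.23e-05 in limma), and the change was -3.71 without mice 4 and 6.

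*Pax5* and *Ikzf3* were the exceptions, and the call of *Pax5* turned on mice 4 and 6. *Pax5* ran from 1.61 to 2.77 (median 2.28) in unirradiated old mice and was -0.29, -1.21, -0.47, 2.76, -1.73 and 2.45 in irradiated old mice 1 to 6. The 4 other mice lay below the unirradiated range, and mice 4 and 6 lay inside it. With all 6 mice the change was -2.04 (SE 0.71, adjusted p = 0.0397 in limma), and its unadjusted p missed the threshold. Without mice 4 and 6 it was -3.21 (SE 0.32, adjusted p = 9.28e-05) and *Pax5* was called, as it was without mouse 4 alone (-2.54) or mouse 6 alone (-2.48).

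*Ikzf3* ran from 1.41 to 2.51 (median 1.86) in unirradiated old mice and was 2.33, 1.73, 1.55, 6.08, 1.52 and 5.88 in irradiated old mice 1 to 6. Mice 4 and 6 stood more than 3 log2 units above every other mouse of the study. The change was 1.24 (SE 0.80, 95% interval -0.49 to 2.97, adjusted p = 0.247 in limma) with all mice and -0.16 without these 2, not called either. The mean of 12 T cell markers was 6.24 and 6.43 in mice 4 and 6 and 5.27 to 5.84 in the other 4 mice, while the mean of 7 NK cell markers was 3.99 and 3.90 against 4.69 to 5.42. The mean of 7 red cell markers was 11.87 and 11.91 against 7.33 to 8.37, and mice 4 and 6 had the lowest median signals. The part of any of these in the *Ikzf3* values was not tested. After normexp background correction 0 factors and 8 genes were called in old mice, with the estimates of the 7 factors still below 0. Without old irradiated mice 2, 3 and 5, the same 7 factors were called lower and *Ikzf3* was called higher by 2.82 (adjusted p = 0.00654), with 40.5% of all genes called. This fit kept old irradiated mice 1, 4 and 6, so mice 4 and 6 made up most of the group. The old slide that held both doses did not hold mice 4 and 6. On it the 8 factors other than *Ikzf3* differed by -1.68 (*Pou2f2*) to -4.84 (*Ebf1*), with 2 irradiated against 2 unirradiated mice. These differences were not worked out over all genes.

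**Figure D2:**
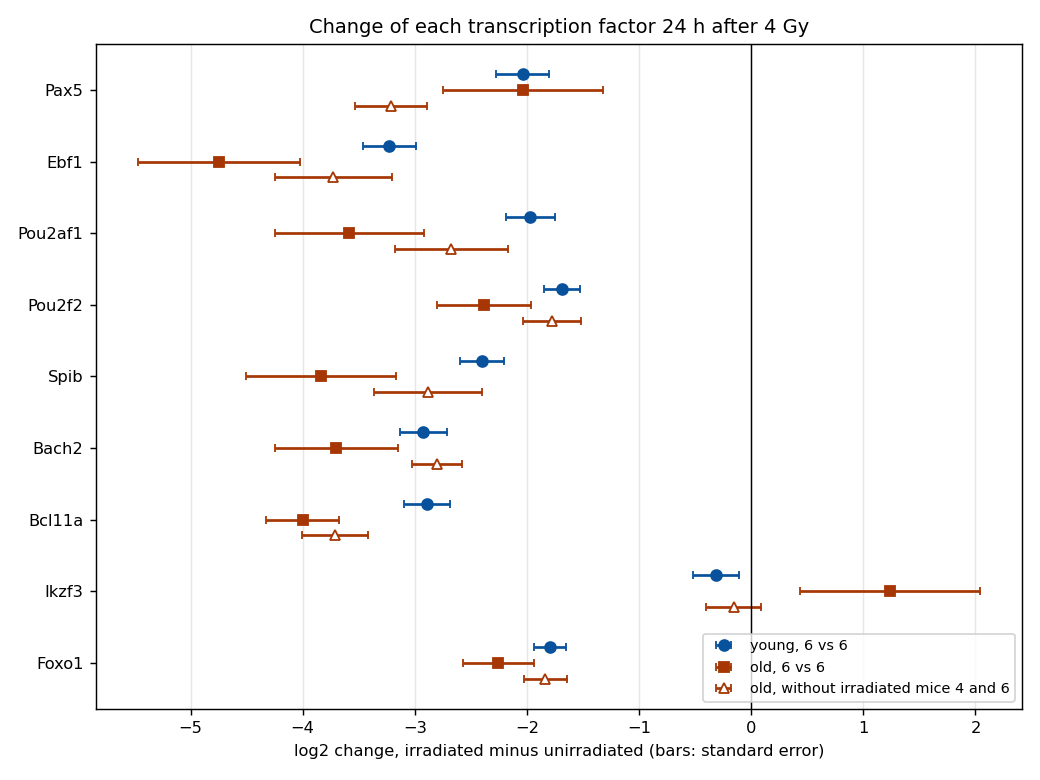
Log2 change of each factor after 4 Gy (irradiated minus unirradiated, horizontal axis, bars are the standard error) in young mice, in old mice and in old mice without irradiated mice 4 and 6. Leaving these 2 mice out moved *Pax5* from -2.04 to -3.21 and *Ikzf3* from 1.24 to -0.16, and brought the other 7 factors closer to 0.

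The factors were next set against the B cells themselves. The mean of 8 B cell surface and signalling markers, among them *Cd79b*, *Ms4a1*, *Cd79a*, *Cd72*, *Cd22*, *Fcrla* and *Blk*, was 6.35 ± 0.19 (SD, n = 6) in young unirradiated, 3.81 ± 0.37 in young irradiated, 7.0 ± 0.34 in old unirradiated and 3.33 ± 1.37 in old irradiated mice, and all 8 were called lower after radiation at both ages. In old irradiated mice 1 to 6 it was 2.54, 3.70, 5.31, 1.95, 4.40 and 2.05. This is the order that *Ebf1*, *Pou2af1* and *Spib* gave, with mouse 3 highest and mice 4 and 6 lowest. *Pax5* and *Ikzf3* did not follow it.

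**Figure D3:**
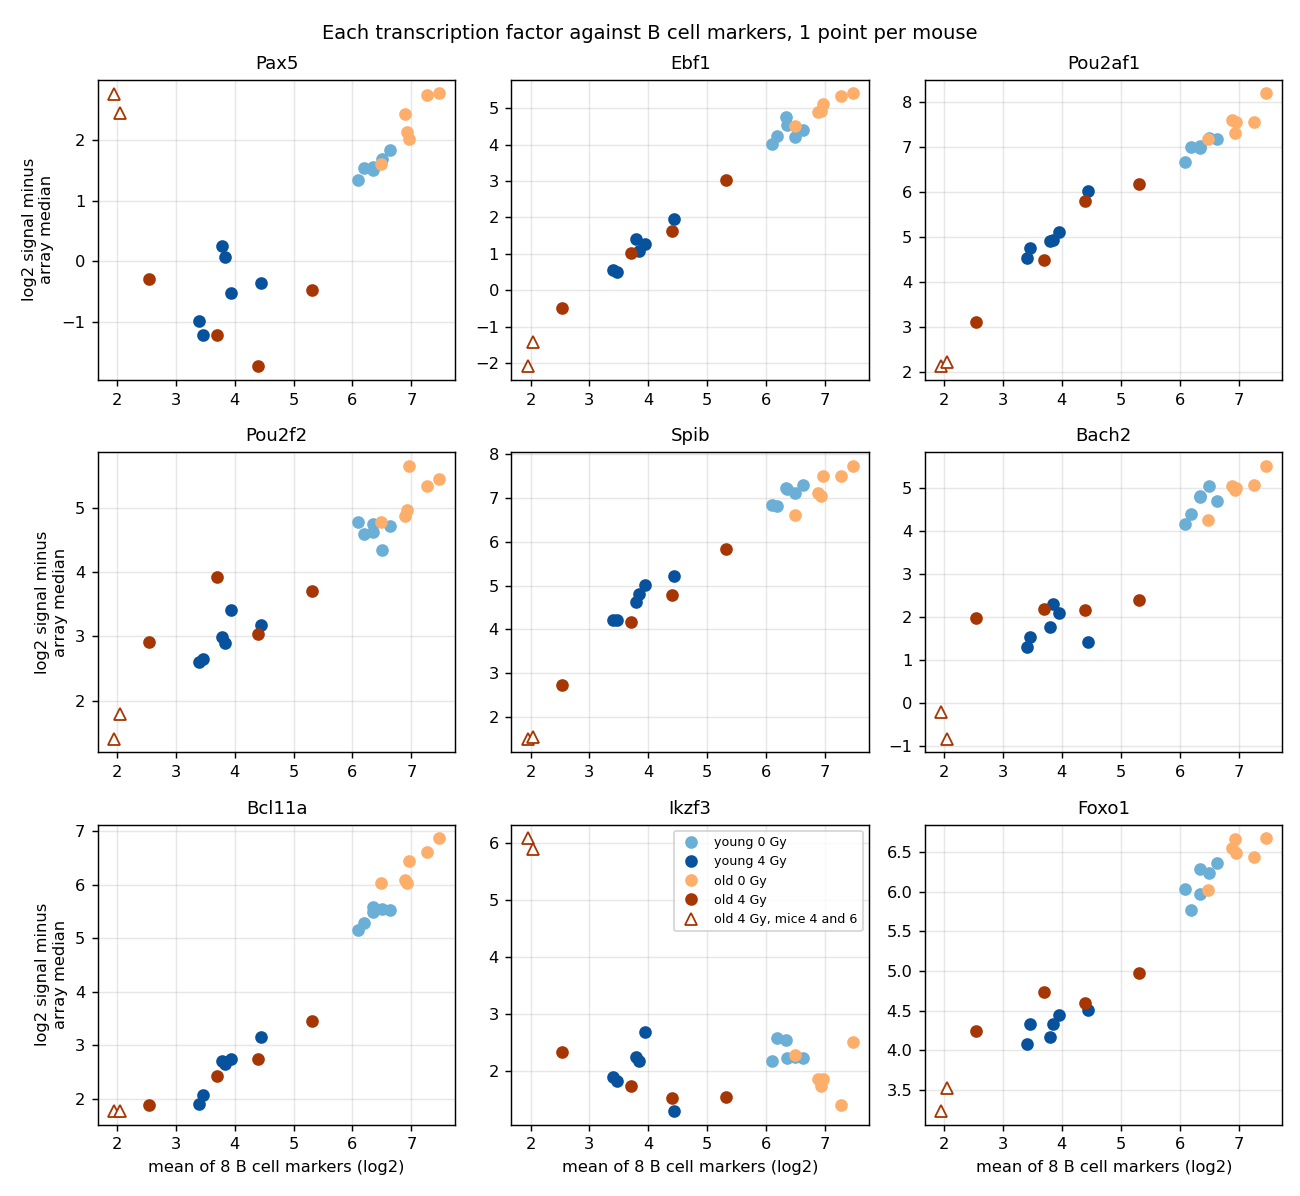
Level of each factor (vertical axis, log2 signal minus the array median) against the mean of the 8 B cell markers in the same mouse (horizontal axis, same scale), 1 point per mouse, 24 mice; open triangles are old irradiated mice 4 and 6. *Ebf1*, *Pou2af1* and *Spib* climb with the markers across all groups, while *Ikzf3* stays between 1.30 and 2.68 outside the triangles.

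When each array was scaled by the 8 markers instead of its median, 5 of the 9 factors were called in young mice, 4 higher and 1 lower. On this scale 94.6% of all genes were called higher and 0.12% lower, and the median change of all genes was 2.34. A value of 0 here means a fall as large as the mean fall of the 8 markers. *Ikzf3* was higher by 2.22 (SE 0.29, adjusted p = 3.75e-06 in limma), *Pou2f2* by 0.85 (SE 0.20, adjusted p = 0.000707), *Foxo1* by 0.74 (SE 0.18, adjusted p = 0.00126) and *Pou2af1* by 0.57 (SE 0.16, adjusted p = 0.00389). *Ebf1* was lower by -0.69 (SE 0.19, adjusted p = 0.00267).

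*Spib* changed by 0.14 (95% interval -0.20 to 0.48), *Bach2* by -0.39 (-0.90 to 0.12), *Bcl11a* by -0.35 (-0.70 to -0.01) and *Pax5* by 0.50 (0.01 to 0.99), and none of the 4 was called. When 4 of the markers set the scale, 2 factors were called, *Ikzf3* and *Pou2f2*, and *Ebf1* was not. Without young irradiated mice 2, 4 and 5, 5 factors were called higher and 0 lower, with 95.7% of all genes called. *Ebf1* was thus not called there either. The calls of *Pou2af1* and *Ebf1* were the least stable, lost in 11 and 7 of the 12 fits that each left out 1 mouse. With arrays scaled by their median, 21.4% of all genes were called lower and 14.4% higher in young mice. On that scale T cell markers also fell, with 9 of 12 called lower, among them *Thy1* (-1.34), *Lck* (-1.04), *Cd2* (-0.96), *Cd3e* (-1.13) and *Cd3d* (-1.52), and 5 of 7 NK cell markers were called higher. Their part in these differences was not tested.

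In old mice 1 factor was called relative to the markers, *Ikzf3*, higher by 4.92 (SE 1.21, adjusted p = 0.00134 in limma) with all mice and by 2.85 (adjusted p = 0.000112) without mice 4 and 6. Here 94% of all genes were called higher and 0.00572% lower. *Foxo1* was at 1.42 (95% interval 0.47 to 2.37) and *Pou2f2* at 1.30 (0.33 to 2.26). Neither passed the unadjusted threshold, although both intervals lay above 0. *Ebf1* was at -1.07 (-1.94 to -0.20), and the intervals of the other 5 factors included 0. Without old irradiated mice 2, 3 and 5, which left mice 1, 4 and 6, 5 factors were called, and so were 98.7% of all genes. *Pax5*, *Ikzf3*, *Pou2f2* and *Foxo1* were higher and *Ebf1* was lower by -1.54. Without mouse 3 alone 4 factors were called.

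**Figure D4:**
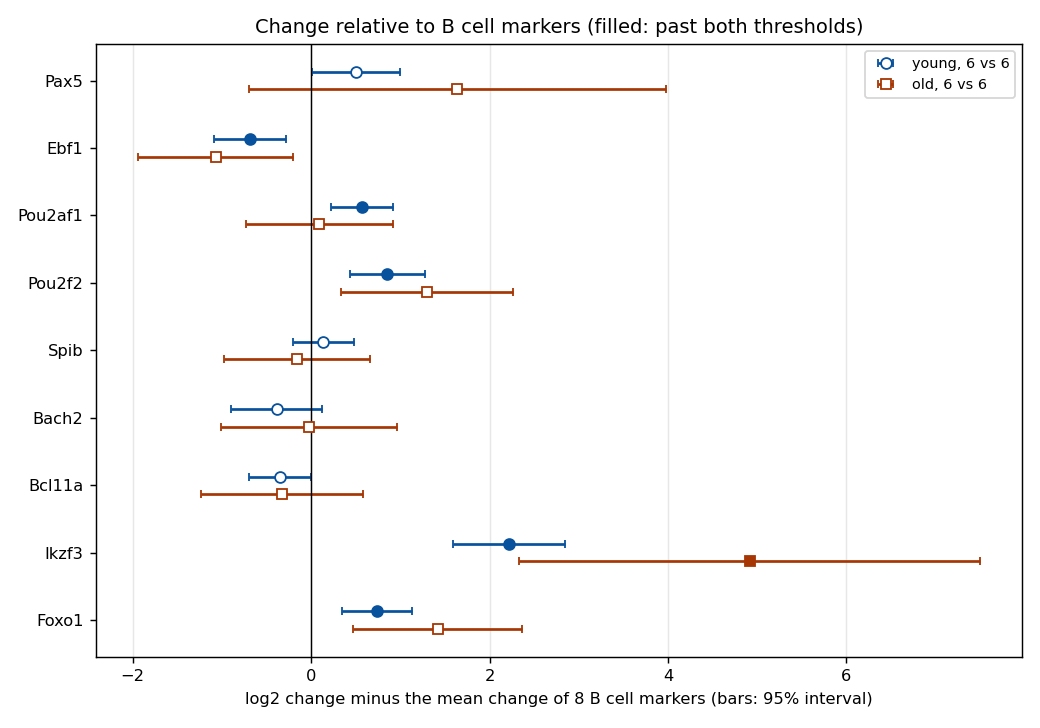
Log2 change of each factor after 4 Gy minus the mean change of the 8 B cell markers (horizontal axis, bars are 95% intervals) in young and old mice, 6 against 6; filled points passed both thresholds. The 5 filled points of young mice are *Ebf1* at -0.69 and *Pou2af1*, *Pou2f2*, *Foxo1* and *Ikzf3* above 0, and the 1 filled point of old mice is *Ikzf3* at 4.92.

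Between old and young unirradiated mice, 3 of the 9 factors were called, all higher in the old, while 48.2% of all genes were called higher. *Bcl11a* was higher by 0.91 (SE 0.17, adjusted p = 0.000302 in limma), *Pax5* by 0.71 (SE 0.19, adjusted p = 0.0046) and *Ebf1* by 0.67 (SE 0.18, adjusted p = 0.00361). The median change of all genes was 0.62, and of the 9 factors *Bcl11a* and *Pou2f2* had groups that did not overlap, as did 37.3% of all genes in the higher direction. The estimates of the other 6 factors ran from -0.39 (*Ikzf3*) to 0.55 (*Pou2af1*). With arrays scaled to their 75th percentile the median of all genes was 0.11, none of the 9 factors was called higher, and *Ikzf3* was called lower (-0.91), while the estimates of *Pax5* (0.19), *Ebf1* (0.15) and *Bcl11a* (0.40) stayed above 0 without passing the test. The estimates of *Spib* (-0.34), *Bach2* (-0.19) and *Foxo1* (-0.16), which were not called with either scaling, turned their sign.

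Between irradiated old and young mice 0 of the 9 factors were called, as against 2% of all genes. The estimates ran from -1.26 (*Spib*, 95% interval -2.71 to 0.19) to 1.16 (*Ikzf3*, -0.58 to 2.91). Intervals this wide do not show that the ages were alike. Without old irradiated mice 2, 3 and 5, 4 were called, with *Ebf1* (-2.46), *Pou2af1* (-2.57) and *Spib* (-2.76) lower and *Ikzf3* higher (2.74) in old mice, and 10.6% of all genes were called. Most of the old irradiated group was then mice 4 and 6, with mouse 1 beside them. Without mice 4 and 6, 0 factors and 28.5% of all genes were called, and 7 of the 9 estimates turned their sign, among them *Ebf1* (0.17) and *Bach2* (0.45).

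Whether radiation changed the factors by different amounts at the 2 ages was tested as an interaction of age and radiation. In this test 0 of the 9 factors and 0% of all genes were called in limma, while 4112 genes had an unadjusted p below 0.05. The lowest adjusted p among the 9 was that of *Bcl11a*, with an estimate of -1.11 for old minus young (SE 0.38, adjusted p = 0.133 in limma). *Pou2af1* followed with -1.61 (SE 0.73, adjusted p = 0.19). Without mice 4 and 6 the estimates were -0.82 and -0.70 and 0 factors were called. Without mouse 3, *Bcl11a* (-1.33) and 5.92% of all genes were called. Without mice 2, 3 and 5, 8 factors were called, 7 with larger falls in old mice and *Ikzf3* higher, and so were 34.1% of all genes. That fit kept old irradiated mice 1, 4 and 6, so mice 4 and 6, whose arrays stood apart, made up most of the group.

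The other probes of *Bach2*, *Pou2f2* and *Foxo1* fell with the first. For *Pou2f2* probe A_51_P166728 changed by -1.60 in young and -2.35 in old mice, for *Foxo1* probe A_52_P453884 by -1.91 and -2.21, and for *Bach2* probe A_55_P1956370 by -2.09 and -2.34, all called. The *Bach2* probe was not well above background in any young irradiated mouse. Set against a floor, *Bach2* was 1.66-fold lower there by this probe. Such a figure sets the mean of the brighter group against the lowest signal among probes well above background on each array of the dimmer group, or the probe's own value where higher. This floor is not a detection limit of the probe itself, so the figure is rough and not a strict lower bound.

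The probes of *Pax5* and *Bcl11a* did not move alike in old irradiated mice 4 and 6. The second *Pax5* probe, which did not pass the filter on dim probes, was -1.88 and -1.53 in these mice and -3.21 to -1.92 in the other 4, where the first probe was 2.76 and 2.45 against -1.73 to -0.29. It was not well above background in any irradiated mouse. Against the same kind of floor it was 1.78-fold lower after radiation in old mice, with 3 of 6 unirradiated mice well above background. In young mice the same figure was 0.87-fold, with 2 of 6 unirradiated mice well above background, so the figure shows no fall there. For *Bcl11a*, probe A_55_P1988872 changed by -3.09 in young and -4.47 in old mice. Probe A_55_P1958270 changed by -2.30 in young mice but was 2.18 and 2.96 in old irradiated mice 4 and 6, against -1.28 to -0.26 in the other 4, and its change in old mice was 0.17 (SE 0.66, adjusted p = 0.861 in limma). The same probe was lower by -2.53 (adjusted p = 1.64e-05) in old than in young unirradiated mice, opposite to the probe that stood for *Bcl11a*.

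**Figure D5:**
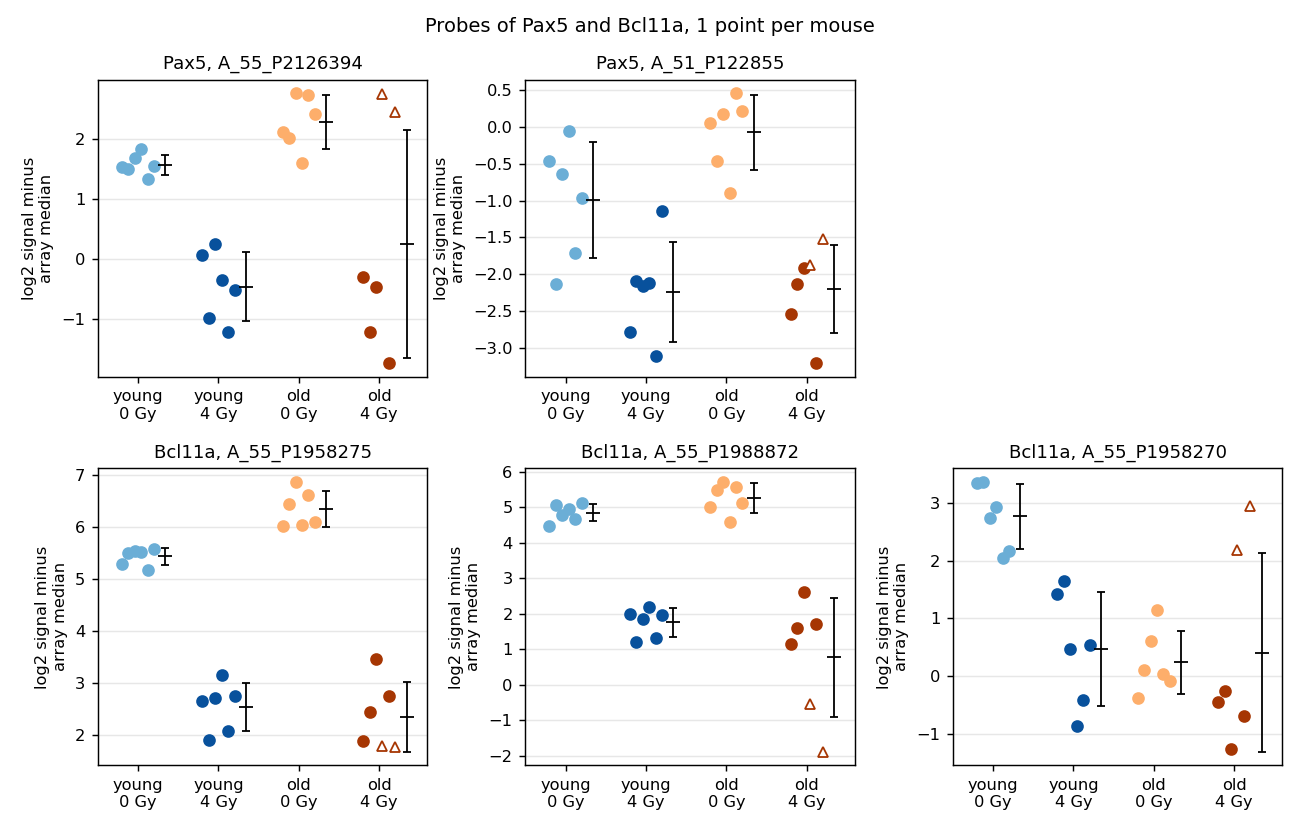
Level of each probe of *Pax5* and *Bcl11a* (log2 signal minus the array median, vertical axis, own range in each panel) in the 4 groups, 1 point per mouse with the mean ± SD over 6 mice; open triangles are old irradiated mice 4 and 6. The triangles are high for *Pax5* A_55_P2126394 (2.76 and 2.45) and *Bcl11a* A_55_P1958270 (2.18 and 2.96) and low for the 2 other *Bcl11a* probes.

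Genes that the factors are known to control were described by lists. Of 16 genes activated by PAX5 or EBF1, 16 were called lower after radiation in young mice (median change -2.59) and 16 in old mice (median -4.01), and 16 again without old irradiated mice 4 and 6 (median -3.21). *Cd79b* and *Cd79a*, which form the signalling part of the B cell receptor, changed by -2.68 and -2.83 in young and by -4.13 and -4.13 in old mice. *Blnk*, the adaptor below the receptor, changed by -2.18 and -4.00, and the follicle homing receptor *Cxcr5* by -2.17 and -3.54. Of the 16, 7 also stand among the 8 B cell markers, so both lists record the same fall.

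Of 10 genes that PAX5 represses, 2 were called higher and 1 lower in young mice, where 14.4% of all genes were called higher, and 0 higher and 1 lower in old mice, where 7.6% were called higher. The median change in old mice was 0.04, against -0.25 for all genes. *Cd44*, an adhesion receptor, was higher by 1.52 and *Xbp1*, the plasma cell factor, by 0.67 in young mice. *Csf1r* (0.52), *Cd28* (-0.55) and *Jchain* (0.29) were not called. The gene called lower at both ages was *Flt3*, a receptor of early progenitors (-1.67 in young and -2.02 in old mice), named after its values were seen.

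Of 12 genes activated by FOXO1, 8 were tested. Of the 8, 3 were called lower in young and 2 in old mice, where 21.4% and 17.4% of all genes were called lower. Their median changes were -0.67 and -0.93, against -0.20 and -0.25 for all genes. Without old irradiated mice 4 and 6 the median in old mice was -0.08, against -0.30 for all genes. *Ccr7*, which guides lymphocytes into lymph nodes, changed by -3.14 and -3.70. *Klf2* (-0.35 and -1.09), *Cdkn1b* (-0.55 and -0.20) and *Bcl6* (-0.56 and -0.43) were not called at either age.

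Of 34 other transcription factors of lymphoid cells, 17 were called lower and 4 higher in young mice (median change -0.93), and 14 lower and 1 higher in old mice (median -0.83). Among all genes, 21.4% were called lower and 14.4% higher in young mice (median -0.20). In old mice the shares were 17.4% and 7.6% (median -0.25). The 9 factors had medians of -2.04 and -3.58. *E2f2* was called lower in young mice (-1.53), and *Id2*, an inhibitor of E proteins expressed in NK cells, was called higher (1.60). *Irf8* (-1.64 and -2.95), *Irf4* (-1.29 and -2.74) and the E protein gene *Tcf3* (-1.33 and -2.03) were called lower at both ages, and the T cell factors *Tcf7* (-2.58 and -1.77) and *Lef1* (-2.20 and -1.98) were too, all 5 named after their values were seen.

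The genes whose pattern over the 24 arrays was most like each factor were taken from 10220 genes by Pearson's r, as a description only, since the arrays fall into 4 groups and share the fall of B cell RNA. *Ebf1* was closest to *Cd79a* (r = 0.995), *Pou2af1* to *Blnk* (0.997), *Spib* to *Ly6d* (0.993), *Bcl11a* to *H2-Oa* (0.993), *Bach2* to *Il4i1* (0.989), *Foxo1* to *Btla* (0.987), *Pou2f2* to *Arl5c* (0.981) and *Pax5* to *Foxp4* (0.958). *Ikzf3* was closest to *Apc* (0.994) and *Bbs5* (0.988), and without old irradiated mice 4 and 6 these values were 0.943 and 0.907. After the group means were removed, *Pou2af1* and *Blnk* had r = 0.99 and *Foxo1* and *Btla* r = 0.878.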

How the data were processed

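Whole blood RNA of 24 mice was labelled with 1 dye and hybridised to Agilent arrays. Per the file headers, the deposited intensity columns are background-corrected processed signals from Agilent Feature Extraction 12.0.2, with probe positions on mm9, and the authors' deposited log2 table, whose centring is not stated in the sources used here, served as an alternative. Here log2 intensity minus the median of 43020 non-control spots was used. Non-uniform spots were set missing, dim probes were removed (24130 of 39429 kept), the probe with the highest mean stood for each gene, and genes had to lie 1.5-fold from their median in at least 20% of arrays. Two-sided moderated tests were run in limma 3.58.1 (R 4.3.3) with Benjamini-Hochberg adjustment over 17470 genes, within the 2 groups of each comparison or over all 24 arrays for the interaction, and were tested on simulated data. The number of arrays limits the precision.

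The factors and lists were chosen with earlier results of these data known. The named genes are the 9 factors, genes among the 5 brightest of each list and the 2 genes most like each factor. Lists held genes activated by PAX5 or EBF1, repressed by PAX5, activated by FOXO1, other lymphoid factors, and markers of B, T, NK, plasmacytoid dendritic and plasma cells, neutrophils, monocytes, red cells and hepatocytes. Alternatives were other scalings, background correction, the deposited table, filters, probes, variance models, slide and replicate blocks, and leaving mice out. Those without old irradiated mice 4 and 6 or without young irradiated mice 2, 4 and 5 were chosen after seeing the data. The labels name 1 mouse per sample. Some genes of the lists are not reported here by name.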

Additional observations from a re-analysis of the deposited data

Results flagged for a closer look

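*Foxo1* in old unirradiated mouse 4 was 6.02, while the nearest of the other 5 mice was at 6.44 and the highest at 6.67. This mouse lay apart from its group by 0.641 of the range of the group. It was the only 1 of 36 combinations of factor and group that did so, where chance gives about 1 in 20. The same mouse also had the lowest mean of the B cell markers among the old unirradiated mice, 6.49.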

How the results depend on the processing

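In young mice 8 factors were called lower after radiation under all alternatives run except 2: normexp gave 3, and probes well above background on every array gave 7. That filter left out *Pax5*, whose probe was well above background in 3 of 6 young irradiated mice. In old mice the alternatives gave 5 to 8, except 0 after normexp. The 5 came from the same filter, which left out *Pax5*, *Ebf1* and *Bach2*. Their probes were well above background in 5, 3 and 4 of 6 old irradiated mice. Leaving out 1 mouse gave 8 to 8 in young and 7 to 8 in old mice, and 0 to 0 between irradiated old and young mice. The number called between unirradiated old and young mice was least stable. It was 1, called lower, with the 75th percentile, quantile normalization, the median of bright probes or the deposited table. With these 25.9% to 35.2% of all genes were called. With 1 fit of all arrays or the replicate block it was 1, called higher, beside 34.7% and 58.2% of all genes. It was 0 after normexp, and 5, all higher, with trend and robust variances, with bright probes alone or with slide as a block. With these last 3 settings 64.6% to 74.0% of all genes were called. It ran from 1 to 5 when 1 mouse was left out, with 1 without young unirradiated mouse 1 or 5 or old unirradiated mouse 3 or 5, and 5 without old unirradiated mouse 4. Without old irradiated mice 2, 3 and 5 the counts were 4 between irradiated ages, 8 for the interaction and 5 relative to B cell markers in old mice. These fits kept old irradiated mice 1, 4 and 6. Without mice 4 and 6 the same counts were 0, 0 and 1. The interaction count ran from 0 to 1 with 1 mouse left out. Relative to B cell markers, young mice gave 2 with 4 markers, 1 after normexp, 2 with the deposited table, 3 with the replicate block and 3 to 5 with 1 mouse left out. It was 3 without young unirradiated mouse 1, 2 or 6 or young irradiated mouse 1, 2, 5 or 6. Old mice gave 2 with the replicate block and 1 to 4 with 1 mouse left out, with 4 without irradiated mouse 3.

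Same-numbered mice deviated together (r above 0.1) in 1 to 4 of 6 pairs of a comparison, with r from -0.60 to 0.58. These values do not settle whether replicate numbers paired the mice, and the main fits did not pair them. With the replicate block 8, 7, 1, 0 and 0 factors were called for radiation in young, radiation in old, age without radiation, age with radiation and the interaction.

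The cause of the following turned signs was not tested. Among changes called after radiation, *Bcl11a* by its probe A_55_P1958270 in old mice was the only one to turn. Between unirradiated old and young mice the values were *Spib* -0.34, *Bach2* -0.19 and *Foxo1* -0.16 with the 75th percentile, *Pou2af1* -0.11, *Spib* -0.50, *Bach2* -0.30, *Pou2f2* -0.086 and *Foxo1* -0.34 with quantile normalization, and *Pou2af1* -0.034, *Spib* -0.41, *Bach2* -0.26, *Pou2f2* -0.0496 and *Foxo1* -0.22 with the median of bright probes. They were *Spib* -0.28, *Bach2* -0.16 and *Foxo1* -0.12 after normexp, *Pou2af1* -0.20, *Spib* -0.59, *Bach2* -0.38, *Bcl11a* -0.31, *Pou2f2* -0.17 and *Foxo1* -0.59 in the deposited table, and *Bcl11a* -0.40 as the mean of its probes and -2.53 by probe A_55_P1958270. Between irradiated old and young mice they were *Ebf1* 0.15 in the deposited table, *Bach2* 0.12 as the mean of probes and 0.70 by probe A_55_P1956370, *Pou2f2* 0.0058 by probe A_51_P166728, and without old irradiated mice 4 and 6 *Pax5* -0.47, *Ebf1* 0.17, *Bach2* 0.45, *Bcl11a* 0.092, *Ikzf3* -0.24, *Pou2f2* 0.44 and *Foxo1* 0.33. With 1 mouse left out *Pou2f2* ran from -0.38 to 0.12 and *Foxo1* from -0.25 to 0.10.

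For the interaction they were *Bach2* 0.075 after normexp, *Ebf1* 0.15 and *Foxo1* 0.20 in the deposited table, *Pax5* -1.18 and *Bach2* 0.12 without old irradiated mice 4 and 6, and *Pax5* -0.39 without young irradiated mice 2, 4 and 5. *Pax5* ran from -0.50 to 0.40 with 1 mouse left out. Relative to B cell markers *Spib* was -0.019 after normexp in young mice. In old mice *Spib* was 0.0398 and *Bach2* 0.17 with 4 markers, *Ebf1* 0.28, *Pou2af1* -0.14 and *Bach2* 0.48 after normexp, *Pou2af1* -0.17 in the deposited table, *Pou2af1* -0.27, *Bach2* 0.15 and *Bcl11a* 0.29 without mice 2, 3 and 5, and *Pax5* -0.20, *Spib* 0.13 and *Bach2* 0.21 without mice 4 and 6. With 1 mouse left out *Bach2* ran from -0.32 to 0.15 and *Pou2af1* from -0.057 to 0.19. After radiation *Ikzf3* was 0.034 in young mice without mice 2, 4 and 5 and -0.16 in old mice without mice 4 and 6, and *Bcl11a* was 0.17 in old mice by probe A_55_P1958270. Dim signals limit *Pax5*, *Ebf1* and *Bach2* in irradiated mice.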

Other observations

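Markers of other blood cells were counted beside the B lineage factors. In young mice 14.4% of all genes were called higher after radiation and 21.4% lower. In young irradiated mice 4 of 10 neutrophil markers and 4 of 7 monocyte markers were called higher, with 1 monocyte marker lower, and 4 of 7 red cell markers were called lower. Of 7 plasmacytoid dendritic cell markers, a cell type that also uses SPIB and BCL11A, 5 were called lower and 1 higher. *Siglech* (-0.63), *Tcf4* (-0.67), *Cox6a2* (-1.32) and *Ccr9* (-1.98) were among the lower ones, and *Bst2*, an interferon-induced gene, was the one that was higher (2.09). Of 6 plasma cell markers, 2 were called lower, *Mzb1* (-0.99) and *Irf4* (-1.29), and *Xbp1* (0.67) was called higher.

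In old irradiated mice 1 of 12 T cell markers, 1 of 7 plasmacytoid dendritic cell markers (*Tcf4*, -2.22), 1 of 6 plasma cell markers (*Irf4*, -2.74) and 2 of 7 monocyte markers were called lower. None of the 7 NK cell, 10 neutrophil and 7 red cell markers was called. Among all genes 17.4% were called lower and 7.6% higher in this comparison, so these few calls do not set the markers apart from other genes. Without mice 4 and 6, 4 of 7 red cell markers were called lower and 2 of 7 NK cell markers higher, with 34.7% of all genes called in either direction.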
